A study of Mus musculus with 18 samples.

Results

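The genes examined here encode the subunits of the receptors through which retinal neurons sense glutamate, GABA and glycine. They were chosen by symbol: GABA-A receptor subunits (Gabr followed by a letter), ionotropic glutamate receptor subunits (Gria, Grid, Grik and Grin), metabotropic glutamate receptors (Grm) and glycine receptor subunits (Glra and Glrb), on probe sets that name 1 gene only. By this rule 43 of the 18193 genes measured were members. They comprise 4 AMPA, 5 kainate, 6 NMDA and 1 delta subunit, 6 metabotropic glutamate receptors, 15 GABA-A subunits and 5 glycine receptor subunits. The last member, Grid2ip, matches the symbol pattern but encodes a protein that binds a delta receptor, not a subunit.

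Retinas came from male C57BL6/J mice aged 2 months, each given an intravitreal injection of balanced salt vehicle (BSS), dexamethasone (DEX) or triamcinolone (TAA) at the start. They were collected at day 7 or day 30, with 3 biological replicates in each of the 6 groups and 1 Affymetrix array for each replicate, 18 in all. Both drugs are synthetic fluorinated corticosteroids that act on the glucocorticoid receptor; at the ring carbon where dexamethasone carries a methyl group, triamcinolone carries oxygen. The labels give no dose, so it is not known whether the doses of the drugs were matched, and no group without an injection was analysed here. All values are on a log2 scale and centred: for any probe set the median array stands at 0, a difference of 1 is a doubling, and no expression level can be read from them.

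Photoreceptors and bipolar cells release glutamate, while horizontal and amacrine cells release GABA or glycine. AMPA and kainate receptors are fast glutamate-gated cation channels, NMDA receptors need a co-agonist and pass calcium, and metabotropic glutamate receptors signal through G proteins. GABA-A and glycine receptors are chloride channels, and in the retina rho subunits form the slow GABA receptors of bipolar cell terminals.

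The arrays limited what could be seen. Replicates of a group spread by an SD of 0.186 for the median receptor gene and 0.179 for the median of all genes, and the receptor genes ran from 0.0643 for Gabrr1 to 0.616 for Grm5. Array TAA day 7 replicate 2 held the highest value of 13 of the 43 receptor genes (30.2%, against 14.1% of all genes). Array DEX day 30 replicate 3 held the lowest value of 8 of them (18.6%, against 6.21% of all genes). In whole retina, fewer cells of a type and less RNA per cell cannot be told apart. Because the values are centred, markers of retinal cell types could be compared between arrays but not used to check what the tissue was.

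**Figure D1:**
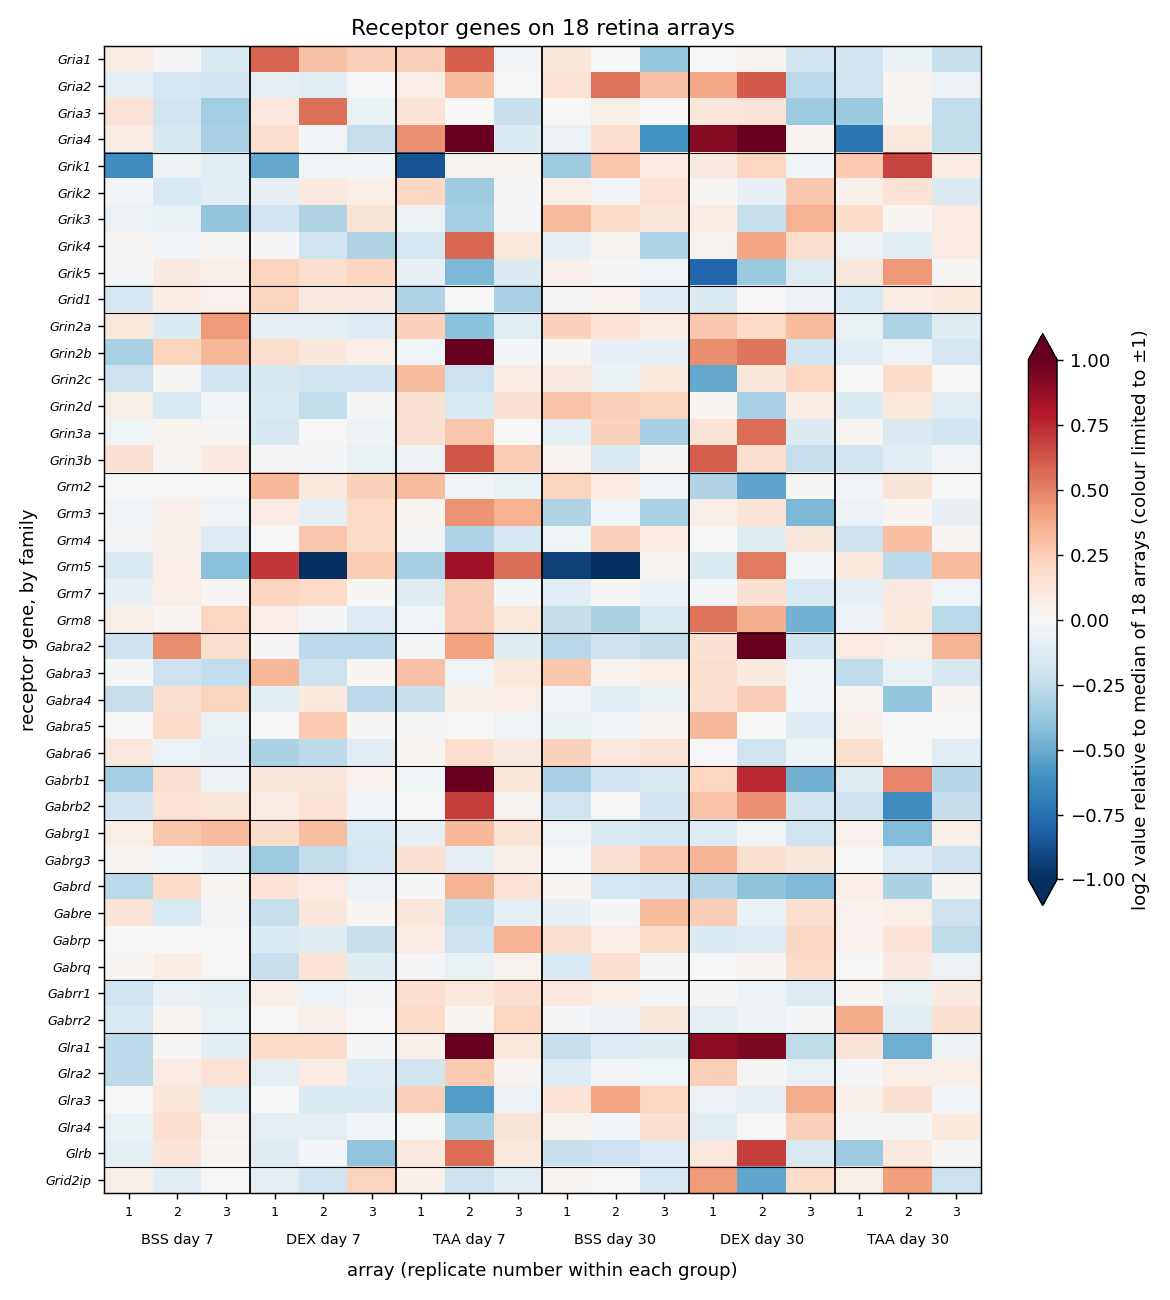
Log2 value of each of the 43 receptor genes (rows, by receptor family) on each of the 18 arrays (columns, by group and replicate), relative to the median of the 18 arrays, with colour limited to ±1. TAA day 7 replicate 2 holds the highest value of 13 genes, and DEX day 30 replicate 3 the lowest value of 8.

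Within dexamethasone-treated retinas, day 30 was compared with day 7. Grik5, a kainate receptor subunit that raises the receptor's affinity for glutamate, fell 1.55-fold, and Gabrg3, a gamma subunit of the GABA-A receptor, rose 1.38-fold. These 2 of 43 receptor genes passed an adjusted p of 0.05 over all genes in limma with Benjamini-Hochberg adjustment, against 2.63% of all genes, and in the other comparisons of this fit none did. An unadjusted p under 0.05 was reached by 9 of the 43, against 20.1% of all genes. Both shares lie near the background, so the comparison does not set the receptor genes apart from other genes. The direction was up for 30 of the 43, against 46.3% of all genes, and the median difference was 0.13 over the receptor genes and -0.02 over all genes. The arrays of the days did not overlap for 9 of the 43 (20.9%), against 26.7% of all genes.

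Grik5 measured 0.23, 0.16 and 0.22 on the DEX day 7 arrays and -0.79, -0.37 and -0.13 on the DEX day 30 arrays. The later arrays all lay below the earlier ones, and replicate 1 lay farthest down. The difference was -0.63 ± 0.15 (SE, adjusted p = 0.0351 in limma). Vehicle arrays differed little in this gene, at -0.02, 0.09 and 0.06 on day 7 and 0.05, -0.01 and -0.05 on day 30. The call depended on single arrays. Without DEX day 7 replicate 1, 2 or 3 the adjusted p in limma was 0.166, 0.112 or 0.0672, and without DEX day 30 replicate 1 or 2 it was 0.143 or 0.106. Without DEX day 30 replicate 3 it was 0.00995. In a fit on the DEX arrays alone it was 0.0817. Grik5 is represented by a single probe set, so no second measurement within the arrays exists for it here.

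Gabrg3 measured -0.36, -0.25 and -0.17 on the DEX day 7 arrays and 0.34, 0.16 and 0.11 on the DEX day 30 arrays, with no overlap. The difference was 0.46 ± 0.11 (SE, adjusted p = 0.0342 in limma). Without DEX day 7 replicate 1 or 2 the adjusted p in limma was 0.183 or 0.114, without DEX day 30 replicate 1 or 2 it was 0.136 or 0.106, and on the DEX arrays alone it was 0.0806. The other 3 probe sets of Gabrg3 did not share the change, with differences of 0.05, 0.07 and -0.13. The mean over its 4 probe sets differed by 0.11, with an adjusted p of 0.539 in limma. The call for this gene therefore holds for the probe set of highest interquartile range and was lost in that mean.

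The 250 bases upstream of the start of both genes are shown because they are the receptor genes that passed. The sequences are from RefSeq on build GRCm38.p6, read 5′ to 3′ on the gene's strand, with GC boxes (GGGCGG on either strand) in capitals. The Grik5 window lies at chr7:25072370-25072619 and the Gabrg3 window at chr7:57387216-57387465, both on the minus strand of chromosome 7.
Grik5: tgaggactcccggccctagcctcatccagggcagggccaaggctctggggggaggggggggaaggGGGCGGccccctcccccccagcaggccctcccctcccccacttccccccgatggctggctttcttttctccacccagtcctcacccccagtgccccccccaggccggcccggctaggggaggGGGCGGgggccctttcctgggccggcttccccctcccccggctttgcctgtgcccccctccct
Gabrg3: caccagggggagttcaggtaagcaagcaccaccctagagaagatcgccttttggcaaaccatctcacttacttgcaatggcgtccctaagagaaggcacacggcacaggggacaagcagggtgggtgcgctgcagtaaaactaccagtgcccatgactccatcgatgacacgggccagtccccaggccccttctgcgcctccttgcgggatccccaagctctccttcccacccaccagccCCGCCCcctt
The Grik5 window was 75.2% G and C with 2 GC boxes, and the Gabrg3 window 60.4% with 1, against a median of 52.4% over all windows. The glucocorticoid receptor is known to bind a palindrome, GNACA and TGTNC with NNN between them. It was searched on both strands, as was AGAACA, which occurs in many of its sites and can overlap it. Neither was in these windows. Of the 43 receptor genes 32 had a window, in 40 windows in all, and the palindrome was in 0 of the 40, against 0.387% of all 32851 windows. AGAACA was in 5 of the 40 (Gabrb2, Gabrr2, Grin3b and Grm8), against 16.1% of all windows, and the GC box was in 21 of the 40, against 32.7%. These are matches of letters in short windows and say nothing of binding.

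**Figure D2:**
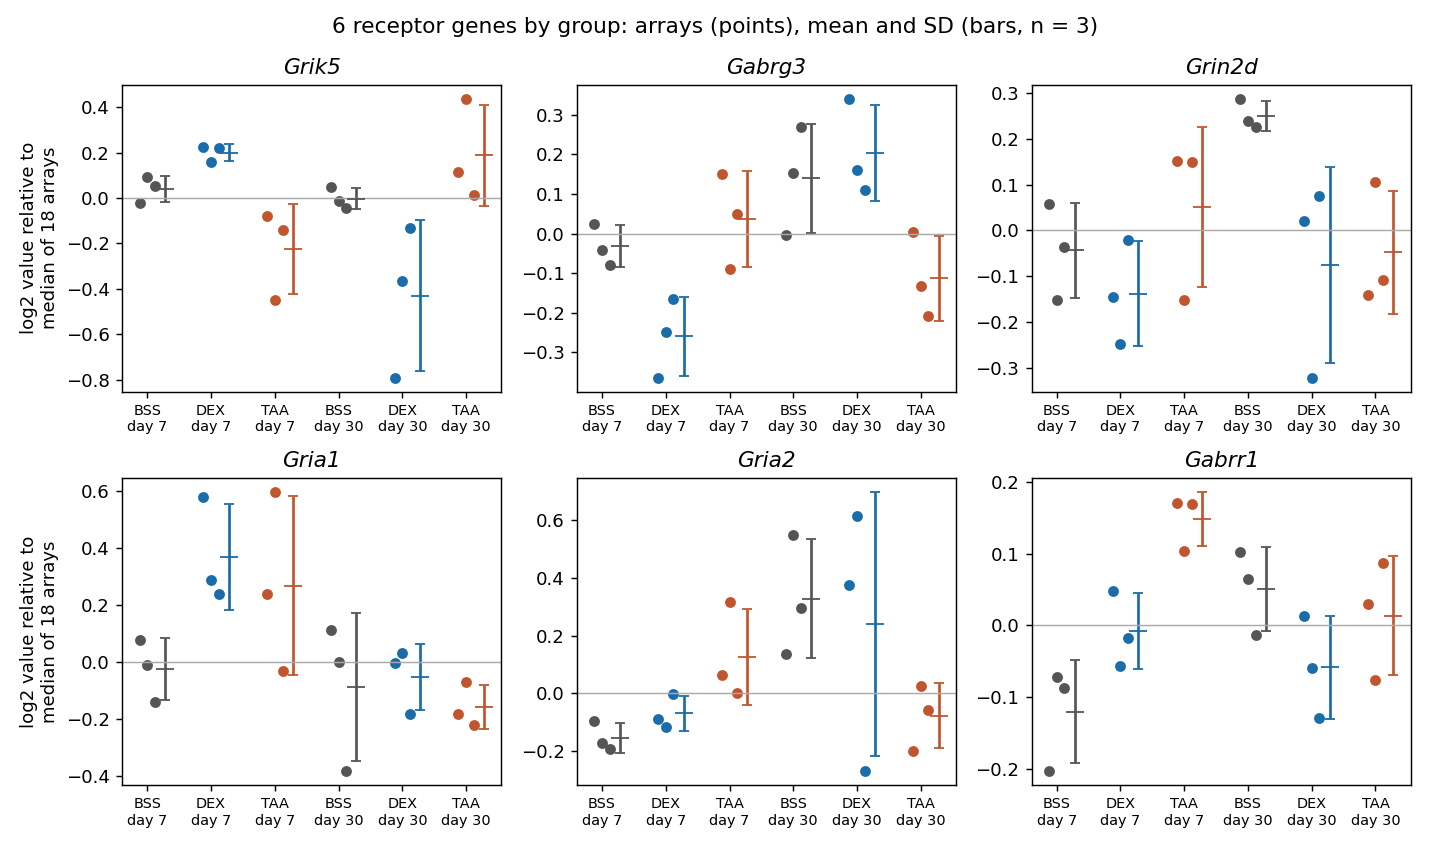
Log2 values of Grik5, Gabrg3, Grin2d, Gria1, Gria2 and Gabrr1 in the 6 groups, as points for single arrays and as mean with SD (n = 3). Grik5 lies at -0.79 to -0.13 on the DEX day 30 arrays and at 0.16 to 0.23 on the DEX day 7 arrays, while its TAA arrays lie the other way round.

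Other receptor genes of the dexamethasone comparison did not pass. Grm2, a presynaptic metabotropic receptor coupled to inhibitory G proteins and known in starburst amacrine cells, measured 0.32, 0.10 and 0.23 at day 7 and -0.30, -0.53 and 0.01 at day 30. Its difference was -0.49 ± 0.13, with an adjusted p of 0.0583 in limma. Gabrd, the delta subunit of GABA-A receptors outside synapses, measured 0.14, 0.08 and -0.06 at day 7 and -0.29, -0.41 and -0.44 at day 30. All 3 later arrays lay below the earlier ones, with a difference of -0.43 ± 0.14 (adjusted p = 0.0887 in limma). The second probe set of Gabrd differed by -0.004.

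On the glutamate side of the same comparison, Grin2a, an NMDA receptor subunit, measured -0.09, -0.09 and -0.13 at day 7 and 0.27, 0.20 and 0.31 at day 30. The arrays of each day lay close together and did not overlap. The difference of 0.37 ± 0.15 had an adjusted p of 0.179 in limma, whose spread was taken over all 6 groups. Grik4, the other high-affinity kainate subunit, measured -0.01, -0.20 and -0.30 at day 7 and 0.03, 0.39 and 0.17 at day 30. It differed by 0.37 ± 0.16, opposite in sign to Grik5 (adjusted p = 0.196 in limma). Gria1, an AMPA receptor subunit, went from 0.58, 0.29 and 0.24 to 0.00, 0.03 and -0.18, with a difference of -0.42 ± 0.15 and an adjusted p of 0.141 in limma. All 6 NMDA and all 5 glycine receptor subunits had a difference above 0, with medians of 0.18 and 0.17 in the kept probe sets, and none of these 11 passed. With the mean over all probe sets of a gene, 5 of the 6 NMDA and all 5 glycine receptor subunits had a difference above 0. On single arrays the median over the 5 kept glycine receptor probe sets overlapped between the days. It was -0.0918, -0.0142 and -0.13 at day 7 and 0.105, 0.0136 and -0.0738 at day 30. The median over the 6 kept NMDA probe sets did not overlap. The other probe sets of Glra1 and Glrb differed by -0.09 and -0.12, and that of Glra3 by 0.22.

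The largest difference was that of Gria4, another AMPA subunit, at 0.76 ± 0.31 (adjusted p = 0.176 in limma), and 0.50 without DEX day 30 replicate 2. Its arrays overlapped, with 0.17, -0.03 and -0.23 at day 7 and 0.92, 1.26 and 0.03 at day 30. Replicates 1 and 2 of DEX day 30 were high and replicate 3 was not, a split also seen in Glra1, an alpha subunit of the glycine receptor, at 0.89, 0.93 and -0.25. Without DEX day 30 replicate 3, the number of receptor genes passing went from 2 to 7 (Gabra2, Gabrg3, Gria2, Gria4, Grik5, Grm2 and Grm8), against 7% of all genes in that fit.

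Markers of other cell types moved with this comparison. The 10 genes listed for astrocytes and reactive glia were all lower at day 30, and their mean ran from 0.348 to 0.579 on the DEX day 7 arrays and from -0.928 to 0.0431 on the DEX day 30 arrays. The 9 measured microglial genes were also all lower (0.167 to 0.621 against -0.645 to 0.071), and 7 of 9 bipolar cell genes were (0.0602 to 0.257 against -0.139 to 0.00816). Müller glia genes were lower in 8 of 10 (0.0803 to 0.193 against -0.126 to 0.0516). Rod genes went the other way, with 6 of 7 higher (-0.136 to -0.0524 against -0.0341 to 0.135). Of the cone genes 4 of 8 were higher, while their mean did not overlap (-0.0109 to 0.0569 against -0.0867 to -0.0279). The amacrine cell genes overlapped, at 0.0132 to 0.222 against -0.104 to 0.112. Lens genes were higher in 11 of 12 and pigment epithelium genes in 10 of 12, with arrays that overlapped. The part of these cells in the receptor values was not tested.

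Within triamcinolone-treated retinas the same comparison of days gave no receptor gene that passed, and the values leaned the other way. The smallest adjusted p in limma was 0.259, and an unadjusted p under 0.05 was reached by 8 of the 43, against 12.3% of all genes. The difference was above 0 in 15 of the 43, against 47.8% of all genes, with a median of -0.10 against -0.01. The arrays did not overlap in 10 (23.3%), against 12.6% of all genes.

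Among kainate receptors, Grik5 measured -0.08, -0.45 and -0.14 on the TAA day 7 arrays and 0.11, 0.44 and 0.01 on the TAA day 30 arrays. All later arrays lay above the earlier ones, the reverse of the order under dexamethasone, with a difference of 0.41 ± 0.15 (adjusted p = 0.312 in limma). Grik1, a subunit known in OFF bipolar cells, went from -0.87, 0.04 and 0.02 to 0.26, 0.68 and 0.08, a difference of 0.61 ± 0.24 (adjusted p = 0.341 in limma). Without TAA day 7 replicate 1 it was 0.31, and the other probe set of Grik1 differed by -0.29. Grik3 measured -0.05, -0.34 and -0.02, then 0.18, 0.02 and 0.09 (0.23 ± 0.15, adjusted p = 0.557 in limma). It differed by 0.13 without TAA day 7 replicate 2, and by -0.11 in its other probe set.

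Of the genes lower at day 30 under triamcinolone, Gabrb2, a beta subunit of the GABA-A receptor, measured 0.00, 0.69 and 0.02 at day 7 and -0.21, -0.62 and -0.24 at day 30. It differed by -0.60 ± 0.19 (adjusted p = 0.259 in limma), and by -0.37 without TAA day 7 replicate 2. Of its 4 other probe sets, 3 differed in the same direction (-0.30, -0.42 and -0.62) and 1 in the other (0.32). Gria1 went from 0.24, 0.60 and -0.03 to -0.18, -0.07 and -0.22, a difference of -0.43 ± 0.15 (adjusted p = 0.313 in limma). Its other probe set differed by -0.53. Without TAA day 7 replicate 2 the difference was -0.26. Grm3, a metabotropic receptor of the group that lowers cyclic AMP, measured 0.03, 0.45 and 0.35 and then -0.05, 0.02 and -0.08 (-0.31 ± 0.15, adjusted p = 0.399 in limma). All 4 AMPA subunits were lower at day 30 under triamcinolone, with a median of -0.32 in the kept probe sets and -0.29 in the mean over all probe sets of a gene. On single arrays the median over the 4 kept probe sets overlapped, at 0.188, 0.457 and -0.0851 at day 7 and -0.285, 0.0196 and -0.232 at day 30.

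Ganglion cell markers were lower at day 30 in these retinas, in 10 of the 11 measured, with means of -0.0654 to 0.191 on the TAA day 7 arrays and -0.524 to -0.199 on the TAA day 30 arrays. Bipolar cell markers were lower in 8 of 9 (0.044 to 0.241 against -0.142 to -0.018). Horizontal cell markers were lower in 6 of 6 (-0.085 to 0.0707 against -0.369 to -0.133). Reactive glia genes were lower in 9 of 10 (0.0318 to 2.18 against -0.578 to 0.28). Lens genes were higher in 10 of 12, and their mean ran from -1.64 to 0.994 on the TAA day 7 arrays and from 0.113 to 3.62 on the TAA day 30 arrays. Their part in the receptor values was not tested.

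**Figure D3:**
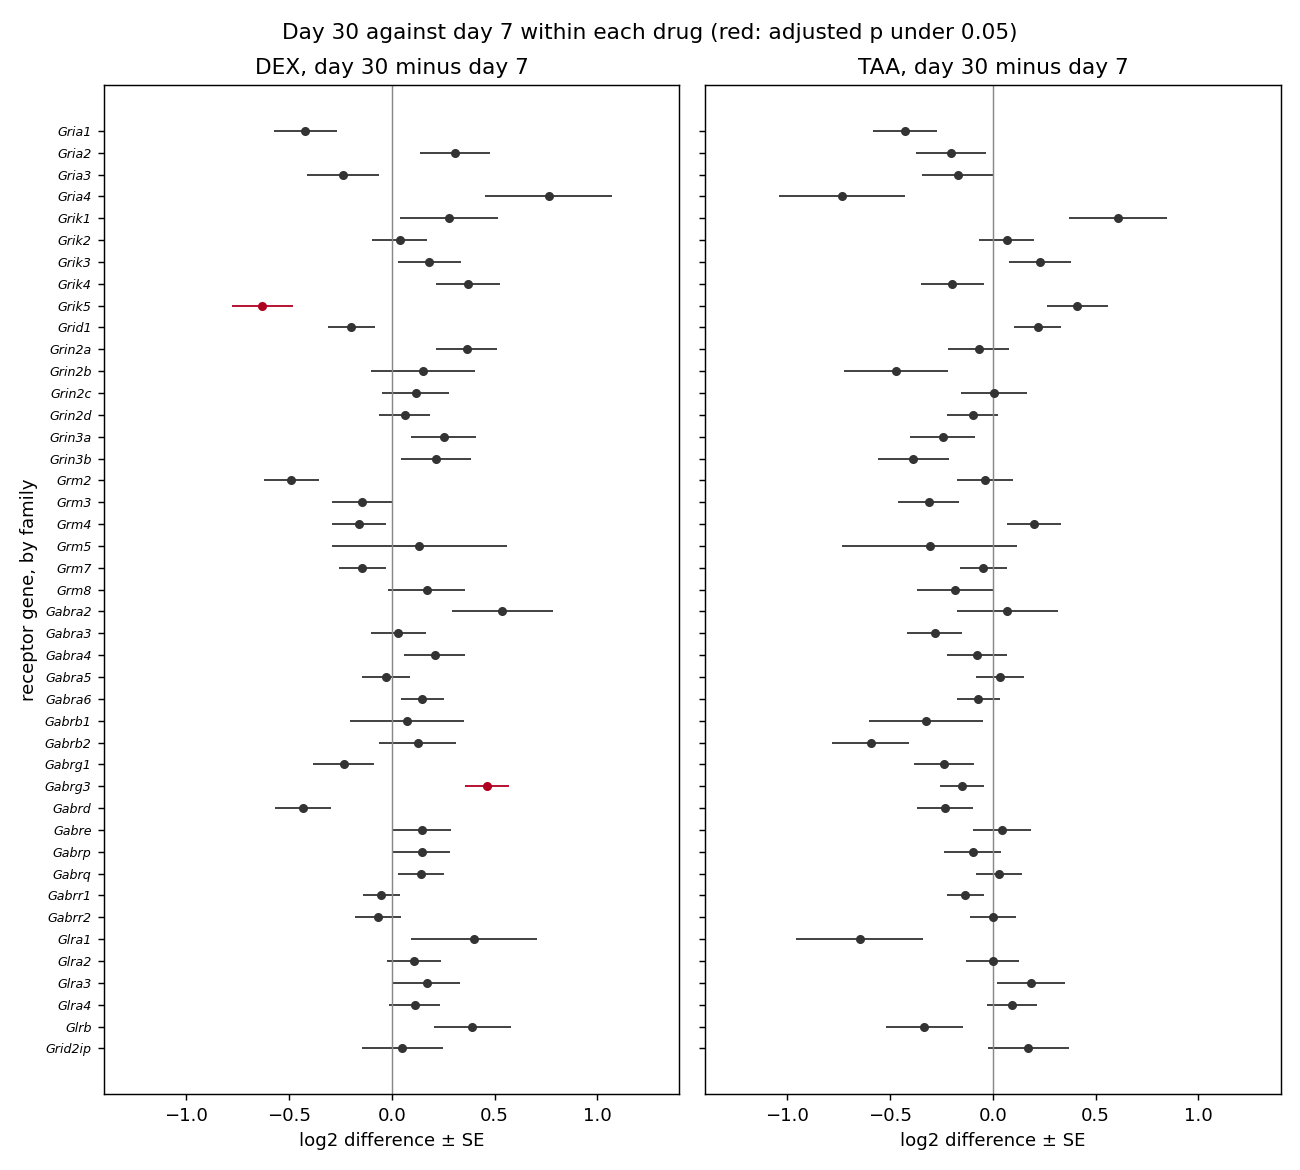
Log2 difference between day 30 and day 7 with its SE for each of the 43 receptor genes, in DEX-treated retinas (left) and TAA-treated retinas (right), with red for an adjusted p under 0.05. Grik5 (-0.63) and Gabrg3 (0.46) are red on the left, and Grik5 lies at 0.41 on the right.

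The difference in time course between the drugs was itself tested. The change of Grik5 from day 7 to day 30 differed by -1.04 ± 0.21 between dexamethasone and triamcinolone, a 2.06-fold difference, with an adjusted p of 0.206 in limma. Gabrg3 differed by 0.61 ± 0.15 and Gria4 by 1.496 ± 0.435, each with an adjusted p of 0.206 in limma. In the mean over all probe sets of a gene these values were 0.23 and 0.48. The other 2 probe sets of Gria4 changed alike under the drugs, by -0.23 and -0.12 under dexamethasone and -0.19 and -0.12 under triamcinolone. None of the 43 receptor genes passed in the test of the drugs' difference in change and none of the 18193 genes did. An unadjusted p under 0.05 was reached by 12 of the 43, against 13.9% of all genes. Without DEX day 30 replicate 3, 6 receptor genes passed (Gabrg3, Glra1, Gria2, Gria4, Grik5 and Grm8), against 3.46% of all genes. All 6 NMDA subunits had a larger day 30 minus day 7 difference under dexamethasone, with a median of 0.47 in the kept probe sets and 0.13 in the mean over all probe sets of a gene. Against vehicle, the change over time of 0 of the 43 passed for either drug. An unadjusted p under 0.05 was reached by 5 of the 43 for dexamethasone (8.56% of all genes) and 5 for triamcinolone (6.01%).

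In vehicle retinas, the days were compared as a measure of what changes without a steroid. No receptor gene passed (smallest adjusted p 0.528 in limma), 5 of all genes did (0.0275%), and 4 of the 43 had an unadjusted p under 0.05, against 7.81% of all genes. The difference was above 0 in 19 of the 43, against 50.6%. The arrays did not overlap for 12 of the 43 (27.9%), against 22.8% of all genes. Gria2, the AMPA subunit whose edited form blocks calcium entry, measured -0.10, -0.17 and -0.19 at day 7 and 0.14, 0.55 and 0.30 at day 30. Its difference was 0.48 ± 0.17 (adjusted p = 0.528 in limma), but its other 2 probe sets differed by -0.18 and 0.15. Grin2d, an NMDA subunit with slow channel closing, measured 0.06, -0.15 and -0.04, then 0.29, 0.24 and 0.23. It differed by 0.29 ± 0.12 (adjusted p = 0.589 in limma), and its second probe set by 0.29.

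Of the remaining vehicle genes, Grik3 measured -0.06, -0.07 and -0.40 at day 7 and 0.32, 0.18 and 0.11 at day 30 (0.38 ± 0.15, adjusted p = 0.554 in limma), while its other probe set differed by -0.15. Gabrg1, a gamma subunit, measured 0.07, 0.27 and 0.31 and then -0.04, -0.14 and -0.18 (-0.34 ± 0.15, adjusted p = 0.606 in limma), while its other probe set differed by -0.01. The metabotropic receptors Grm8 and Grm3, both of groups coupled to inhibitory G proteins, were lower at day 30 by this measure. Grm8 measured 0.06, 0.02 and 0.22, then -0.24, -0.32 and -0.14 (-0.33 ± 0.19, adjusted p = 0.665 in limma). Grm3 measured -0.02, 0.05 and -0.04, then -0.30, -0.04 and -0.32 (-0.22 ± 0.15, adjusted p = 0.713 in limma). In Grm3 the days were separated by a narrow gap, and in Grm8 by a wider one. Lens genes were higher at day 30 in 12 of 12 in these retinas (-0.325 to 0.22 against -0.1 to 2.32), and ganglion cell genes were lower in 10 of 11 (-0.00877 to 0.171 against -0.174 to 0.114). The means of both lists overlapped between the days. Without overlap, the mean of the amacrine cell genes was higher at day 30 (-0.133 to -0.0356 against -0.0295 to 0.05). The means of the cone genes (0.059 to 0.155 against -0.0532 to 0.0218) were lower without overlap. So were those of the pigment epithelium genes (0.158 to 0.239 against -0.222 to 0.0562). Their part in the receptor values was not tested.

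At day 7 each drug was compared with vehicle. Both comparisons use the same 3 vehicle arrays, so their values are not independent and are given side by side only. Against vehicle, 0 of the 43 receptor genes passed for either drug, and 0 of all genes passed for dexamethasone and 1 for triamcinolone (0.0055%). An unadjusted p under 0.05 was reached by 2 of the 43 for dexamethasone (3.91% of all genes) and 2 for triamcinolone (3.95%). The arrays did not overlap for 9 of the 43 under dexamethasone (20.9%, against 14.3% of all genes) and for 4 under triamcinolone (9.3%, against 9.32%). The difference was above 0 for 23 and 29 of the 43, against 48.4% and 49.8% of all genes, with medians of 0.04 and 0.08 over the receptor genes.

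Of the glutamate receptors at day 7, Gria1 measured 0.08, -0.01 and -0.14 on the vehicle arrays and 0.58, 0.29 and 0.24 on the dexamethasone arrays. The difference was 0.39 ± 0.15, with an adjusted p of 1 in limma, and its other probe set differed by 0.11. Under triamcinolone the same gene differed by 0.29 with arrays that overlapped, and by 0.13 without TAA day 7 replicate 2. Grm2 lay within 0.01 of 0 on the vehicle arrays and at 0.32, 0.10 and 0.23 under dexamethasone (0.22 ± 0.13, adjusted p = 1 in limma). Grid1, a delta subunit that organizes synapses, measured -0.18, 0.08 and 0.04 on vehicle and 0.22, 0.09 and 0.09 under dexamethasone (0.15 ± 0.11, adjusted p = 1 in limma). Only a narrow gap separated those groups. The difference was 0.07 without BSS day 7 replicate 1, and its other probe set differed by -0.12.

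All 4 AMPA subunits were above vehicle under each drug at day 7, with medians of 0.22 and 0.29 in the kept probe sets. On single arrays the median over the 4 overlapped with vehicle under each drug. With the mean over all probe sets of a gene, 3 of the 4 were above vehicle under dexamethasone and 4 under triamcinolone. The other probe sets of Gria2 lay below vehicle under dexamethasone, at -0.24 and -0.20. Under triamcinolone, Gria2 measured 0.07, 0.32 and 0.00 against -0.10, -0.17 and -0.19 on vehicle (0.28 ± 0.17, adjusted p = 1 in limma). It was 0.19 without TAA day 7 replicate 2. Grik5 lay below vehicle at -0.08, -0.45 and -0.14 (-0.26 ± 0.15, adjusted p = 1 in limma), and above it under dexamethasone by 0.16. Without TAA day 7 replicate 2 the triamcinolone difference was -0.15.

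Of the inhibitory receptors at day 7, Gabrr1, the rho subunit, had the tightest replicates of all 43 genes. It measured -0.20, -0.07 and -0.09 on vehicle and 0.17, 0.10 and 0.17 under triamcinolone, with a difference of 0.27 ± 0.09 (1.2-fold, adjusted p = 1 in limma). Under dexamethasone it measured 0.05, -0.06 and -0.02, which also lay above vehicle, with a difference of 0.11 ± 0.09, or 0.07 without BSS day 7 replicate 1. Gabrr2, the other rho subunit measured and the next gene on chromosome 4, measured -0.15, 0.03 and -0.08 on vehicle. Under triamcinolone it was at 0.19, 0.02 and 0.21, which overlapped with vehicle, and it differed by 0.21 ± 0.11. Glra1 measured 0.05, 1.37 and 0.11 under triamcinolone against -0.26, 0.01 and -0.10 on vehicle. Its difference of 0.63 ± 0.31 (adjusted p = 1 in limma) was 0.20 without TAA day 7 replicate 2, and its other probe set differed by -0.06.

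The upstream windows of the rho subunit genes are shown because the means of these neighbours lay above vehicle under both drugs at day 7. They are at chr4:33132306-33132555 for Gabrr1 and chr4:33062862-33063111 for Gabrr2, both on the plus strand of chromosome 4, with capitals for a GC box in Gabrr1 and for AGAACA, here on the other strand as TGTTCT, in Gabrr2.
Gabrr1: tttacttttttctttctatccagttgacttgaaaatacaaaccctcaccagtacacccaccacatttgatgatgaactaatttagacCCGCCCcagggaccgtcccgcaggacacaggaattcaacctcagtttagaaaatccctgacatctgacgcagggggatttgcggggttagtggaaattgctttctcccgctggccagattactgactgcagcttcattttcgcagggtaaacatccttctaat
Gabrr2: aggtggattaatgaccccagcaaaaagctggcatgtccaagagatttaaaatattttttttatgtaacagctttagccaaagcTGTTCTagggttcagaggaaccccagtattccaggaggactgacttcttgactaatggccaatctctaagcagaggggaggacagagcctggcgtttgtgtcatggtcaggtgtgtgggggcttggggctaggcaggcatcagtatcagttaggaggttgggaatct
Gabrr1 had 1 GC box and 46% G and C, and Gabrr2 had 1 match to AGAACA, no GC box and 47.6% G and C.

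Below vehicle under dexamethasone at day 7 were Gabrg3, Gabra6 and Gabrp. Gabrg3 measured 0.03, -0.04 and -0.08 on vehicle and -0.36, -0.25 and -0.17 under dexamethasone (-0.23 ± 0.11, adjusted p = 1 in limma). Of the 3 other probe sets of Gabrg3, 1 differed in the same direction, and their differences ran from -0.16 to 0.07. Gabra6, an alpha subunit best known from cerebellar granule cells, measured 0.10, -0.06 and -0.08 on vehicle and -0.31, -0.26 and -0.11 under dexamethasone (-0.22 ± 0.10, adjusted p = 1 in limma). Its other probe set differed by 0.01. Gabrp, the pi subunit, lay within 0.01 of 0 on vehicle and at -0.14, -0.12 and -0.23 under dexamethasone (-0.16 ± 0.14, adjusted p = 1 in limma).

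The vehicle arrays of day 7 also stood apart from both drugs in marker genes. The mean of the amacrine cell genes was -0.133 to -0.0356 on vehicle, 0.0132 to 0.222 under dexamethasone and 0.0234 to 0.177 under triamcinolone. That of the bipolar cell genes was -0.129 to -0.0183, 0.0602 to 0.257 and 0.044 to 0.241. That of the reactive glia genes was -0.609 to -0.253, 0.348 to 0.579 and 0.0318 to 2.18, with all 10 genes above vehicle under both drugs. Other lists stood apart under a single drug. Under dexamethasone the means of rod (-0.136 to -0.0524 against -0.0446 to 0.0559 on vehicle) and cone genes (-0.0109 to 0.0569 against 0.059 to 0.155) were lower. Those of horizontal cell (0.122 to 0.244 against -0.156 to 0.0792) and Müller glia genes (0.0803 to 0.193 against -0.218 to 0.0435) were higher. Under triamcinolone that of pigment epithelium genes was lower (-0.326 to 0.0515 against 0.158 to 0.239). Their part in the receptor values was not tested. Array BSS day 7 replicate 1 resembled its group least, with a mean correlation across genes of -0.189 with the other two, and without it the median receptor difference of dexamethasone was -0.04 instead of 0.04.

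At day 30 the drugs were again compared with a shared set of 3 vehicle arrays. Again 0 of the 43 receptor genes passed for dexamethasone or triamcinolone, and 0 of all genes did. An unadjusted p under 0.05 was reached by 9 of the 43 for dexamethasone (11.5% of all genes) and 5 for triamcinolone (7.24%). The arrays did not overlap for 5 of the 43 (11.6%, against 14.4% of all genes) and for 7 (16.3%, against 13.4%). The difference was above 0 for 25 and 20 of the 43, against 42.1% and 44.2% of all genes. The medians were 0.06 and -0.04 over the receptor genes and -0.04 and -0.02 over all genes.

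Grin2d lay below vehicle under both drugs at day 30. It measured 0.29, 0.24 and 0.23 on vehicle, 0.02, -0.32 and 0.07 under dexamethasone and -0.14, 0.11 and -0.11 under triamcinolone. All 6 drug arrays lay below all 3 vehicle arrays, which were themselves the highest group. The differences were -0.33 ± 0.12 and -0.30 ± 0.12, with adjusted p of 0.383 and 0.675 in limma. The first was -0.20 without DEX day 30 replicate 2. The second probe set of Grin2d differed by -0.28 and -0.22. Gabra2, an alpha subunit of synaptic GABA-A receptors, lay above vehicle under both drugs, at -0.28, -0.20 and -0.24 on vehicle, 0.16, 1.12 and -0.19 under dexamethasone and 0.08, 0.06 and 0.34 under triamcinolone. Its differences were 0.60 ± 0.25 and 0.40 ± 0.25 (adjusted p = 0.394 and 0.773 in limma), the first of which was 0.22 without DEX day 30 replicate 2. It was 0.88 without DEX day 30 replicate 3. Its other 4 probe sets differed by -0.15 to 0.47 under dexamethasone and by -0.25 to 0.13 under triamcinolone.

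Under dexamethasone at day 30, Grik5 lay below vehicle, at -0.79, -0.37 and -0.13 against 0.05, -0.01 and -0.05. The difference was -0.43 ± 0.15 (adjusted p = 0.374 in limma). It was -0.25 without DEX day 30 replicate 1. Gabra6 measured 0.23, 0.11 and 0.14 on vehicle and 0.00, -0.20 and -0.05 under dexamethasone (-0.24 ± 0.10, adjusted p = 0.409 in limma), and its other probe set differed by -0.03. Grm5, a metabotropic receptor coupled to calcium release, had the largest differences, at 1.01 ± 0.43 for dexamethasone and 0.95 ± 0.43 for triamcinolone. Its vehicle arrays measured -0.93, -1.79 and 0.03 and overlapped with both drugs. Without BSS day 30 replicate 2 the differences were 0.57 and 0.50, and its other probe set differed by 0.26 and -0.05. Without DEX day 30 replicate 3, 6 receptor genes passed against vehicle (Gabra2, Glra1, Gria4, Grik5, Grm2 and Grm8), against 3.82% of all genes in that fit.

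Under triamcinolone at day 30, Gria2 measured -0.20, 0.02 and -0.06 against 0.14, 0.55 and 0.30 on vehicle, with no overlap. Its difference was -0.40 ± 0.17 (adjusted p = 0.682 in limma), and its other 2 probe sets differed by 0.22 and -0.03. Gabra3, an alpha subunit, measured -0.25, -0.06 and -0.16 against 0.27, 0.03 and 0.06 (-0.28 ± 0.13, adjusted p = 0.687 in limma), and its other probe set differed by 0.24. Glra2, a glycine receptor alpha subunit, measured -0.01, 0.07 and 0.05 against -0.13, -0.03 and -0.04, a difference of 0.10 ± 0.13 (adjusted p = 0.895 in limma). All 4 AMPA subunits lay below vehicle under triamcinolone, with a median of -0.17 in the kept probe sets and -0.08 in the mean over all probe sets of a gene. Dexamethasone had 2 above and 2 below in the kept probe sets, and all 4 above in that mean. On single arrays the median over the 4 kept probe sets overlapped between triamcinolone and vehicle.

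Markers also differed from vehicle at day 30. Ganglion cell genes were lower under triamcinolone in 8 of 11 (-0.524 to -0.199, against -0.174 to 0.114 on vehicle). The 9 microglial genes were lower under both drugs, with arrays that overlapped with vehicle. Lens genes were lower under dexamethasone in 12 of 12 and higher under triamcinolone in 10 of 12, on arrays that overlapped with vehicle. Their part in the receptor values was not tested.

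The drugs were then set against each other, as 1 pair at 2 days. At day 7 no receptor gene passed (smallest adjusted p 0.686 in limma), 1 of all genes did (0.0055%), and 7 of the 43 had an unadjusted p under 0.05, against 6.47% of all genes. The arrays did not overlap for 9 of the 43 (20.9%), against 11.7% of all genes. Dexamethasone was the higher in 14 of the 43, against 49.5% of all genes, with a median of -0.10 over the receptor genes and 0.00 over all genes. It was the lower in all 6 NMDA subunits and in 13 of the 15 GABA-A subunits, with medians of -0.22 and -0.12 in the kept probe sets. The mean over all probe sets of a gene gave the same counts, with medians of -0.05 and -0.12. On single arrays the median over the 15 kept GABA-A probe sets overlapped between the drugs. It was 0.00511, 0.0814 and -0.0552 under dexamethasone and -0.00329, 0.0596 and 0.0918 under triamcinolone. The median over the 6 kept NMDA probe sets did not overlap, at -0.119 to -0.0556 against 0.0334 to 0.152. All 3 other probe sets of Grin2b were higher under dexamethasone, by 0.02 to 0.12, as was the other probe set of Grin2d, by 0.07. Microglial genes were higher under dexamethasone than under triamcinolone in 9 of 9, and lens genes were lower in 12 of 12, with arrays that overlapped. The mean of the horizontal cell genes was higher under dexamethasone without overlap (0.122 to 0.244 against -0.085 to 0.0707). The part of these markers in the receptor values was not tested.

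Grid1 was higher under dexamethasone at day 7, at 0.22, 0.09 and 0.09 against -0.30, 0.00 and -0.32 under triamcinolone. The difference was 0.34 ± 0.11 (95% interval 0.10 to 0.58, adjusted p = 0.689 in limma), and its other probe set differed by -0.09. Grik5 differed by 0.42 ± 0.15 (0.11 to 0.74, adjusted p = 0.707 in limma). Grm4, a presynaptic metabotropic receptor, measured 0.01, 0.27 and 0.19 against -0.01, -0.31 and -0.18 (0.32 ± 0.13, adjusted p = 0.76 in limma). Gabra6 lay lower under dexamethasone, by -0.32 ± 0.10 (-0.54 to -0.10, adjusted p = 0.686 in limma), with its other probe set at -0.10. Gabrg3 differed by -0.30 ± 0.11 (adjusted p = 0.719 in limma), while its other 3 probe sets differed by -0.08, 0.00 and -0.02. Glrb, the beta subunit that anchors glycine receptors at synapses, measured -0.12, -0.01 and -0.39 against 0.10, 0.56 and 0.10 (-0.43 ± 0.19, adjusted p = 0.766 in limma). It differed by -0.27 without TAA day 7 replicate 2, and by 0.05 in its other probe set.

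At day 30 no receptor gene passed, 0 of all genes did, and 8 of the 43 had an unadjusted p under 0.05, against 16.6% of all genes. The arrays did not overlap for 5 of the 43 (11.6%), against 14.8% of all genes, and dexamethasone was the higher in 28 of the 43, against 47.7%. Grik5 came closest, with -0.79, -0.37 and -0.13 under dexamethasone against 0.11, 0.44 and 0.01 under triamcinolone. The difference was -0.62 ± 0.15 (95% interval -0.93 to -0.30, adjusted p = 0.0864 in limma). Gabrg3 lay above triamcinolone, at 0.34, 0.16 and 0.11 against 0.00, -0.13 and -0.21 (0.32 ± 0.11, adjusted p = 0.162 in limma). Its other probe sets differed by 0.11, 0.20 and -0.10.

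Also higher under dexamethasone at day 30 was Gabrb2, at 0.29, 0.46 and -0.18 against -0.21, -0.62 and -0.24 (0.55 ± 0.19, adjusted p = 0.165 in limma). Of its 4 other probe sets, 3 differed in the same direction (0.20, 0.30 and 0.88) and 1 in the other (-0.51). Grin2a measured 0.27, 0.20 and 0.31 against -0.07, -0.31 and -0.12 (0.43 ± 0.15, adjusted p = 0.169 in limma). Gria4 had the largest difference, 1.03 ± 0.31 (2.04-fold, adjusted p = 0.12 in limma), with arrays that overlapped, and its other 2 probe sets differed by 0.28 and -0.03. Grin2d did not separate the drugs, at -0.03 with a 95% interval from -0.29 to 0.23, and at 0.10 without DEX day 30 replicate 2. Gabrr1 differed by -0.07 (-0.26 to 0.12). Without DEX day 30 replicate 3, 7 receptor genes passed (Gabrb2, Glra1, Gria2, Gria4, Grik5, Grm2 and Grm8), against 6.89% of all genes in that fit.

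Probe sets of the same receptor gene often differed in sign. Of the 43 genes, 26 had several probe sets. Over the 9 comparisons of 2 groups, their other probe sets had the sign of the kept one in 216 of 378 cases (57.1%), against 57% over the 9010 genes with several probe sets. In the dexamethasone time comparison, Gria4 differed by 0.76 in the kept probe set and by -0.23 and -0.12 in the others. Gabra3 differed by 0.03 in the kept probe set and 1.001 in the other. Gria2 had differences of 0.31, 0.39 and 0.39 there, all of the same sign.

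**Figure D4:**
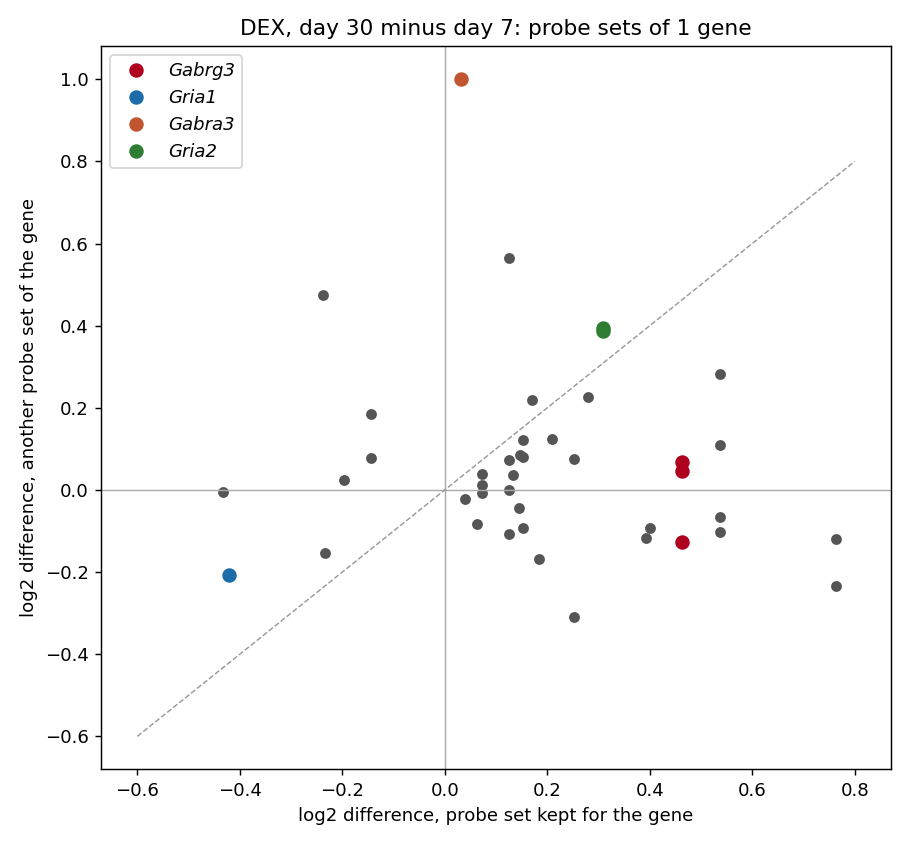
Log2 difference between day 30 and day 7 in DEX-treated retinas, for the probe set kept for a receptor gene (horizontal axis) and for each of its other probe sets (vertical axis), with the line of equal values dashed. The 3 other probe sets of Gabrg3 lie at -0.13 to 0.07 where the kept one lies at 0.46, and the other probe set of Gabra3 lies at 1.001.

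Many receptor genes sit beside each other in the genome. By order on RefSeq's protein-coding genes, pairs of neighbours among the members were Gabra6 and Gabrb2 on chromosome 11, Gria2 and Glrb on chromosome 3, Gabrr2 and Gabrr1 on chromosome 4, Gabrg1 and Gabra2 and also Gabra4 and Gabrb1 on chromosome 5, Gabrg3 and Gabra5 on chromosome 7, and Gabra3 and Gabrq on chromosome X. The called Gabrg3 differed by 0.46 in the dexamethasone time comparison, and the arrays of its neighbour Gabra5 overlapped.

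The wider pathway was read from lists of genes that anchor, fill or supply these receptors. Of 40 receptor scaffolds and auxiliary subunits 37 were measured, of 24 genes of transmitter synthesis and transport 20, of 10 genes of the GABA-B receptor and its regulators 8, and of 5 chloride transporters 4. In limma with Benjamini-Hochberg adjustment 3 of these genes passed, all of them in the dexamethasone time comparison and lower at day 30: 2 scaffold or auxiliary genes and 1 gene of the GABA-B list. The share of all genes that passed there was 2.63%, so 3 among the 69 genes is near the background. The median differences of these lists were -0.09, -0.06, 0.00 and -0.06 there, against -0.02 over all genes.

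Nlgn2, a neuroligin of inhibitory synapses, measured 0.48, 0.18 and 0.18 on the DEX day 7 arrays and -0.46, -0.44 and -0.26 on the DEX day 30 arrays. It fell by 0.67 ± 0.13 (adjusted p = 0.0225 in limma). Gabbr1, a subunit of the metabotropic GABA-B receptor, measured 0.47, 0.61 and 0.05, then -0.18, -0.36 and -0.05, and fell by 0.58 ± 0.14 (adjusted p = 0.0346 in limma). Gabarap, a trafficking protein named for its binding to GABA-A receptors and also part of autophagy, measured 0.22, 0.09 and 0.00, then -0.41, -0.47 and -0.16. It fell by 0.45 ± 0.11 (adjusted p = 0.0376 in limma).

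These 3 calls were also lost when single arrays were left out. Without DEX day 7 replicate 1 or 2, or DEX day 30 replicate 1 or 2, the adjusted p in limma ran from 0.073 to 0.146 for Nlgn2, from 0.11 to 0.181 for Gabbr1 and from 0.118 to 0.199 for Gabarap. Averaged over all probe sets of the gene, the differences were -0.28 for Nlgn2 and -0.23 for Gabbr1, with adjusted p of 0.173 and 0.193 in limma. After quantile normalization between arrays the adjusted p in limma was 0.0602 for Gabbr1 and 0.0849 for Gabarap.

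Other genes of these lists with arrays that did not overlap in the dexamethasone time comparison included the serine hydroxymethyltransferases, which make glycine from serine. Shmt1, the cytosolic form, measured -0.14, -0.38 and 0.18 at day 7 and 0.99, 0.94 and 0.22 at day 30 (0.83 ± 0.23, adjusted p = 0.06 in limma). Shmt2, the mitochondrial form, differed by -0.40 ± 0.11 (adjusted p = 0.0633 in limma), from 0.28, -0.03 and -0.05 to -0.30, -0.40 and -0.29. The enzymes thus had opposite signs, and neither passed. Of the transporters, Slc12a2, which loads cells with chloride, measured 0.66, 0.65 and 0.44 at day 7 and 0.12, 0.24 and -0.29 at day 30 (-0.56 ± 0.25, adjusted p = 0.217 in limma).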

How the data were processed

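RNA of 18 retinas was labelled by a two-cycle protocol and hybridised to Affymetrix mouse arrays, per the labels' protocols. The deposited values are log2 intensities, made by the authors with RMA per the submitters' processing notes, and the files show them centred on each probe set's median; the number of arrays limits the precision, and no filter on level was possible. Of 45101 probe sets, 34945 name 1 gene, and the probe set of highest interquartile range was kept for each of 18193 genes. Groups were compared in limma 3.58.1 (R 4.3.3) fitting a mean for each of the 6 groups to the 18 arrays together, and p-values were adjusted by Benjamini-Hochberg for the 18193 genes (threshold 0.05). The scripts were tested on simulated data.

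Any receptor gene could be named; full statistics were to go to those that passed and, in each comparison and direction, to the 3 of smallest p whose arrays did not overlap, and to the pathway genes that passed and the 2 of smallest p per direction. Others with full statistics were chosen after their values were seen. The members and lists were chosen with earlier results of these data known. Alternatives were other normalizations, all probe sets of a gene, a filter on interquartile range, array weights, the compared groups alone, a replicate block and leaving out arrays. The test of the drugs' difference in change, the fit without 3 arrays and the family counts under other settings were added after seeing the data. The labels name no batch. Replicates are labelled biological, and p-values measure the spread between these samples. A gene the symbol rule reaches is not reported here.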

Additional observations from a re-analysis of the deposited data

Results flagged for a closer look

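For 2 receptor genes the order of the steroids at day 7 was the reverse of that at day 30. Every array of the groups lay on opposite sides at each day. Genes were flagged here for this pattern, and no share of all genes with a reversal is given. At a single day the arrays of the drugs did not overlap for 11.7% (day 7) and 14.8% (day 30) of all genes. Those shares are not shares of a reversal, so they cannot show whether the count sets the receptor genes apart from other genes. Grik5 was higher on all dexamethasone arrays at day 7 and lower on all at day 30, and its change over time differed between the drugs by -1.0402 on the log2 scale (adjusted p = 0.206 in limma). Gabrg3 did the opposite, with a difference in change of 0.6124 (adjusted p = 0.206 in limma) in the kept probe set. In the mean over all probe sets of Gabrg3 it was 0.2295.

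The same reversal was seen against vehicle for Grik5 under dexamethasone, with a difference in change of -0.5866 (adjusted p = 0.478 in limma). It was also seen for Gria2 under triamcinolone, with -0.6847 (adjusted p = 0.788 in limma) in the kept probe set. In the mean over all probe sets of Gria2 the value was -0.1647. None of these 4 interaction tests passed over all genes. The 4 values share arrays with each other, so they are not independent of one another.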

How the results depend on the processing

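Of the gene values refitted, most kept their direction: 895 stayed on the same side of the threshold, 35 passed only under the alternative, 32 no longer passed and 7 reversed, all near 0. Grin2d in dexamethasone minus triamcinolone at day 30 was 0.0285 after quantile normalization, 0.0394 with array weights, 0.0494 without 3 arrays, and ran from -0.1023 to 0.0957 with single arrays left out. Gabra3 in dexamethasone over time ran from -0.0987 to 0.1725 with single arrays left out. Some medians near 0 changed sign, as their values show. Medians over the receptor genes are called moved past 0.037, 1 SD between arrays; the causes were not tested.

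At day 30 minus day 7 under dexamethasone 2 receptor genes passed, against 2.63% of all genes, and 0 on the compared groups alone. Without the genes of low interquartile range (below the median), which left Grik5 untested, 0 passed. Leaving out 3 arrays (BSS day 7 replicate 1, TAA day 7 replicate 2 and TAA day 30 replicate 2) gave 4, against 8.42% of all genes. Array weights gave 10, against 22.9%. They also gave 5 in dexamethasone minus triamcinolone at day 7 (4.11% of all genes) and 9 at day 30 (13%). Dexamethasone minus vehicle at day 30 had 8 (14.8%) and vehicle over time 1 (2.9%). The changes of dexamethasone against vehicle and against triamcinolone had 4 (9.5%) and 7 (4.49%). Apart from dexamethasone over time, where 2 passed, all of these counts were 0 with all arrays weighted equally. With single arrays left out, counts ran from 0 to 7 in dexamethasone over time and 0 to 6 against vehicle at day 30. They ran from 0 to 7 against triamcinolone at day 30 and 0 to 6 in the change against triamcinolone. Each was highest without DEX day 30 replicate 3, where 7%, 3.82%, 6.89% and 3.46% of all genes passed, in that order.

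Medians without the genes of low interquartile range were 0.1867 (triamcinolone minus vehicle, day 7), -0.196 and 0.2042 (dexamethasone minus triamcinolone, day 7 and 30), -0.2335 (triamcinolone over time), and 0.2127, -0.2376 and 0.4009 (changes of dexamethasone and triamcinolone against vehicle, and of the drugs against each other). With array weights they were 1e-04 (dexamethasone minus vehicle, day 7), -0.0615 and 0.1196 (dexamethasone minus triamcinolone), and 0.1168, -0.0552 and 0.22 (the changes). Without the 3 arrays they were -0.0442 (dexamethasone minus vehicle, day 7), 0.0962 (dexamethasone minus triamcinolone, day 30), and -0.0296 and 0.1814 (changes of triamcinolone against vehicle and of the drugs). Quantile normalization gave 0.1769 for the last, and the mean over probe sets 0.0049 for triamcinolone minus vehicle at day 30.

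With single arrays left out, medians ran from -0.0442 to 0.0877 and 0.0131 to 0.1036 (dexamethasone minus vehicle, day 7 and 30), -0.145 to -0.0828 and 0.0438 to 0.1223 (dexamethasone minus triamcinolone), -0.0531 to 0.0292 (vehicle over time), 0.0653 to 0.1195 (dexamethasone over time), and 0.0153 to 0.0908, -0.1341 to -0.0697 and 0.1084 to 0.1824 (the changes).

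Replicate numbers were not taken to pair the samples, since not every same-numbered pair correlated above 0.1. The median correlation of deviations from the group mean was 0.0388 over 45 same-numbered pairs, with 16 above 0.1. It was -0.0176 over 90 others, with 19 above 0.1. Such a bar is hard to meet, and deviations centred within groups are not independent. These values therefore cannot decide whether same-numbered samples were paired. With the replicate number as a block, 2 receptor genes passed in dexamethasone over time (Gabrg3 and Grik5), against 2.77% of all genes, and 0 elsewhere.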
